A study of Mus musculus with 6 samples.

Results

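STAT factors carry signals of cytokine receptors to the nucleus, and SOCS proteins shut those signals off. The 9 genes described here are the STAT factors Stat2, Stat3, Stat5a and Stat6, the Janus kinase Jak2, and the feedback genes Socs1, Socs2, Socs3 and Cish, of 13840 genes that have a probe of their own among 33012 probes on the array. They were chosen by name, as probes whose only gene symbol in the platform annotation is one of these, and each gene turned out to have 1 such probe, so a second probe was there for none of them. RNA came from RAW 264.7, a mouse macrophage-like cell line, in 3 biological replicates stimulated with LPS, a bacterial endotoxin, at 1 μg/mL and 3 replicates treated with 15(S)-HETE, a hydroxylated product of arachidonic acid, at 40 μM immediately before the same dose of LPS. Cells were harvested at 24 h and each replicate pooled 6 wells of a plate. Both groups thus hold LPS-stimulated cells of 1 cell line, the labels name no vehicle for the LPS group, and unstimulated cells were not analysed here. Intensities are linear chemiluminescent signals, and the question of the comparison is what 15-HETE adds to the response to LPS.

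When a cytokine binds its receptor, Janus kinases at the receptor phosphorylate STAT proteins, which pair up, enter the nucleus and switch on target genes. Among these targets are the SOCS genes and Cish, whose products bind the receptors or the kinases and end the signal. Macrophages that meet LPS secrete interferon-β, IL-6 and IL-10 and then respond to them through STAT2, STAT3 and their partners, while GM-CSF acts through STAT5 and IL-4 through STAT6. The arrays measured RNA and say nothing of phosphorylation.

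The cells carried the marks of macrophages. Of 10 macrophage markers 6 had a probe of their own, among them Adgre1 (F4/80), Itgam, Lyz2, Cd14 and the lineage factor Spi1, and all 6 were brighter than the 95th percentile of 747 probes of olfactory receptors, genes not expected in these cells. Markers of other cell types were dim. All 4 measured granulocyte and erythroid markers, all 4 lymphocyte markers and all 5 epithelial markers lay under that percentile, as did 3 of 5 fibroblast markers and 3 of 4 neuron markers. The summed macrophage markers ran from 2529359 to 3283132 in LPS samples and from 3651563 to 3789272 after 15-HETE, and all 6 had a positive log2 fold change. The summed granulocyte and erythroid markers ran from 4299 to 5498 in LPS samples and from 1902 to 3384 after 15-HETE, with 3 of 4 below 0. Epithelial sums ran from 6788 to 8389 and from 4074 to 6614, fibroblast sums from 21562 to 26993 and from 12861 to 15207, and neuron sums from 12774 to 14468 and from 4289 to 7355. Lymphocyte sums overlapped, at 2366 to 3486 and 2126 to 5412. In the epithelial, fibroblast and neuron lists a single gene held most of the difference. These were Krt8 (mean 3474 in LPS samples and 1735 after 15-HETE), Dcn (14584 and 5822) and Syt1 (12621 and 4834). The largest differences in the macrophage list and the granulocyte and erythroid list were those of Lyz2 (2119353 and 2573367) and Mpo (2137 and 848). The only positive log2 fold changes in the epithelial, fibroblast and neuron lists were those of Epcam (0.42), Col3a1 (0.48), Snap25 (0.81) and Gria2 (0.55). These 4 were dim, with group means of 200 to 391, under the median of 400 of the olfactory receptor probes. The part of these markers in the results below was not tested. LPS replicate 1 was often brighter than the other LPS samples. It was the brightest LPS sample for 40.7% of all probes and for 47.3% of probes above the median of the array, and for 7 of the 9 genes described here. Across probes, which are not independent replicates, LPS samples correlated at 0.972 to 0.979 (Pearson's r of log2 values), treated samples at 0.955 to 0.962 and samples of different groups at 0.943 to 0.962. By this measure the sample least like the others was 15-HETE + LPS replicate 1, at 0.943 to 0.955. Results are given with and without LPS replicate 1 because of its brightness for these genes, and with each other sample left out in turn. Since LPS replicate 1 was singled out by the values of these genes, results without it are descriptive and no independent support. The precision is limited by the number of arrays, and which arrays were hybridized together is not given in the sources used here, so treatment and any difference between hybridization rounds cannot be told apart.

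At an adjusted p under 0.05 limma called 0 of the 9 genes, where it called 0.951% of all probes (0.509% higher and 0.442% lower). At an unadjusted p under 0.05 there was 1 gene higher, Stat3, and 1 lower, Stat5a, where 8.62% and 11.0% of all probes were. The methods' t-test over all probes called 0 of the 9, but it called 0 probes of the array, so this is no result about these genes. Past its fold rule only Socs2 was left to test, and it did not pass (adjusted p = 0.28). In a setting of limma called the intensity trend, the prior variance follows the brightness of a probe. There Stat3 passed, and so 1 gene was higher and 0 were lower, where 3.87% and 4.96% of all probes were. Stat3 was called with array weights too (1.9% of all probes higher) and among probes above the median alone (7.31% higher). The 2 groups did not overlap for 2 of the 9 genes, the same Stat3 and Stat5a, where they did not for 30.0% of all probes. These shares are near the background and are not a result about the 9 genes as a group. The median log2 fold change, 15-HETE + LPS minus LPS, was -0.105 over the 9 genes, against 0.007 over all probes.

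**Figure D1:**
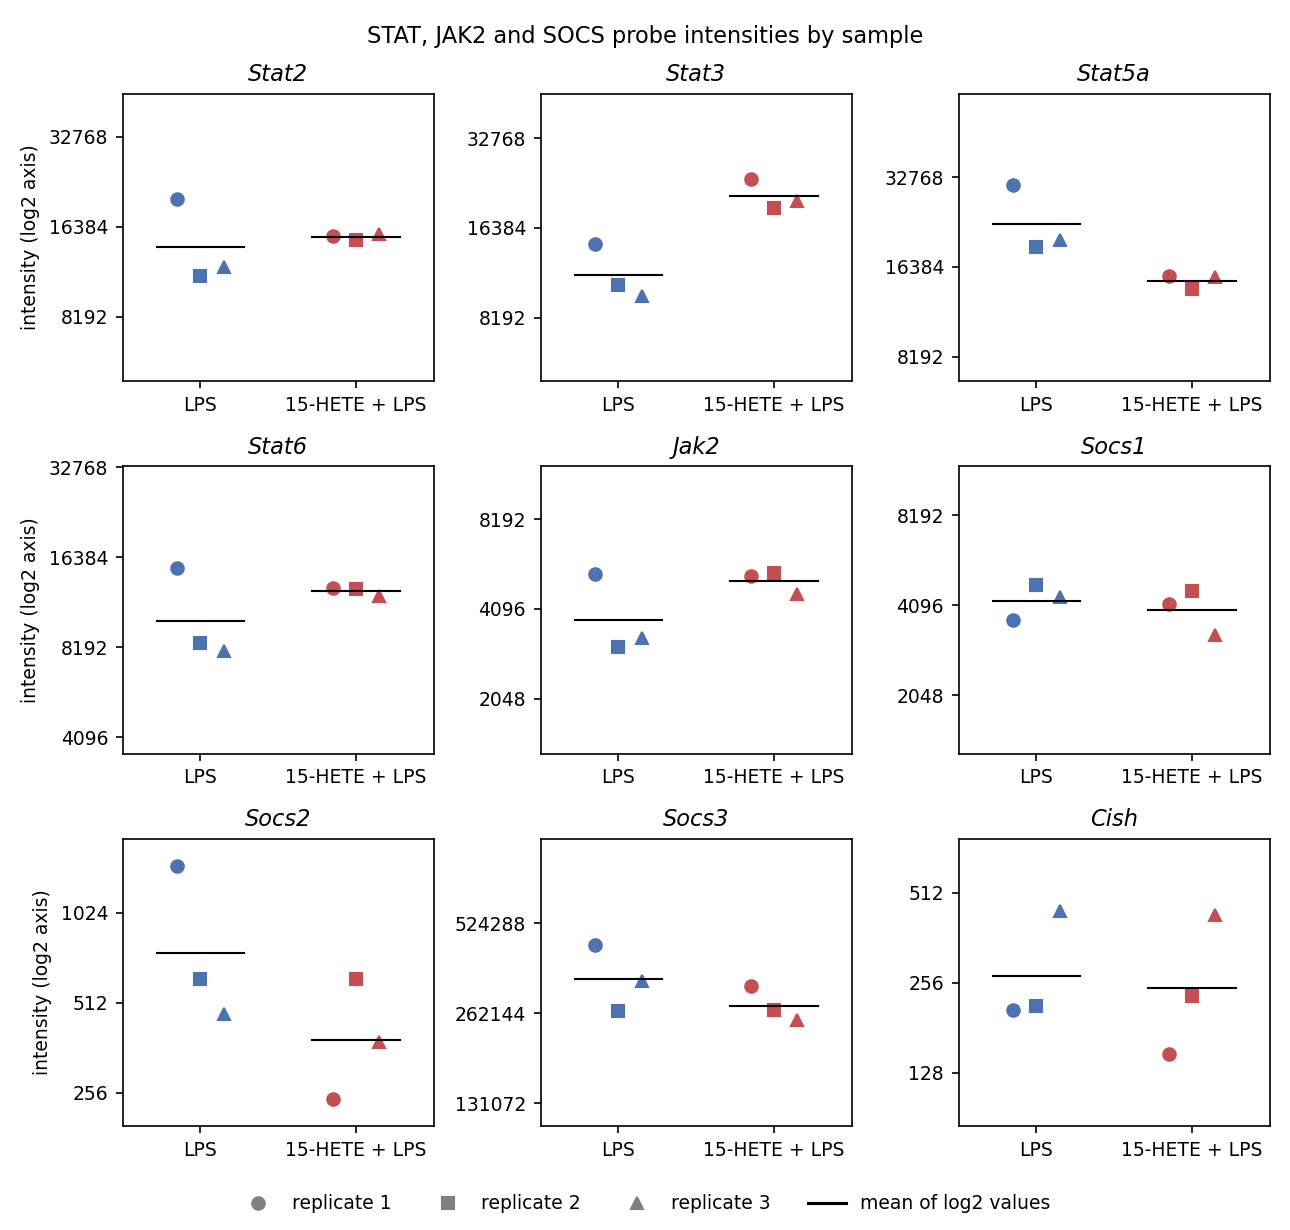
Probe intensity (log2 axis, 1 scale per panel spanning the same or nearly the same number of doublings) of the 9 genes in 3 LPS samples (blue) and 3 samples of 15-HETE + LPS (red), with a marker shape for each replicate number and a line at the mean of the log2 values. Stat3 lies higher and Stat5a lower in every treated sample, and LPS replicate 1 is the highest LPS sample in 7 panels.

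Stat3, the factor through which IL-6 and IL-10 act, was the STAT gene with the lowest p. Its intensity was 14495, 10548 and 9703 in the LPS samples and 23939, 19136 and 20124 after 15-HETE. All 3 treated samples lay above all 3 LPS samples, and the lowest treated sample was above the highest LPS sample. This 1.84-fold difference, 0.88 on the log2 scale (standard error 0.23, 95% confidence interval 0.33 to 1.43), had an adjusted p = 0.116 from limma. Under the intensity trend that p fell to 0.0142, and the exact permutation test gave a two-sided p = 0.1, the smallest that 3 samples against 3 allow. Without LPS replicate 1 the log2 fold change was 1.05, with an adjusted p of 0.000222 with the trend and 0.0864 without it. Without the other samples in turn it was 0.76 to 0.94, with an adjusted p of 0.0478 to 0.0639 with the trend, and of 0.19 to 0.294 without it. The probe is annotated to several Stat3 transcripts, so the isoforms cannot be told apart.

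Stat5a, which serves GM-CSF and other growth factors of blood cells, lay the other way. LPS samples had 30712, 19059 and 20196 and treated samples 15295, 13789 and 15205. Every treated sample was below every LPS sample, and the treated samples lay close together. On the log2 scale the difference was -0.63 (standard error 0.24, 95% confidence interval -1.21 to -0.05, adjusted p = 0.225 from limma, 0.0624 with the intensity trend). Without LPS replicate 1 it was -0.41, with an adjusted p of 0.0116 with the trend and 0.203 without it. Without the other samples in turn it was -0.76 to -0.58, with an adjusted p of 0.0643 to 0.187 from limma with the trend.

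Stat2, which works with IRF9 in the complex that answers interferon-β, had 20289, 11239 and 12054 in LPS samples and 15234, 14748 and 15441 after 15-HETE. The treated samples agreed closely and lay between LPS replicate 1 and the other two. Its log2 fold change was 0.11 (95% confidence interval -0.54 to 0.76, adjusted p = 0.852 from limma). Stat6, the factor of IL-4 and IL-13, had 15024, 8448 and 7925 against 12928, 12808 and 12126, a log2 fold change of 0.33 (95% confidence interval -0.36 to 1.02, adjusted p = 0.562). The pattern was that of Stat2, with LPS replicate 1 above and the other LPS samples below every treated sample. Without LPS replicate 1 both genes were higher in every treated sample, with log2 fold changes of 0.38 for Stat2 (adjusted p = 0.018 from limma with the intensity trend, 0.21 without it) and 0.62 for Stat6 (adjusted p = 0.00216 and 0.11). Without the other samples in turn Stat2 had -0.05 to 0.13 and Stat6 0.16 to 0.36. The adjusted p from limma with the trend was then 0.826 to 0.996 for Stat2 and 0.499 to 0.77 for Stat6.

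Jak2, the kinase at the receptors of interferon-γ, GM-CSF and erythropoietin, had 5381, 3047 and 3264 in LPS samples and 5300, 5420 and 4586 after 15-HETE. LPS replicate 1 was as bright as the treated samples, and the other LPS samples were below all of them. Its difference was 0.43 on the log2 scale (standard error 0.27, 95% confidence interval -0.22 to 1.08, adjusted p = 0.424 from limma), and 0.69 without LPS replicate 1 (adjusted p = 0.0174 with the intensity trend, 0.118 without it). Without the other samples in turn it was 0.28 to 0.51, with an adjusted p of 0.34 to 0.609 from limma with the trend. With LPS replicate 1 left out, Stat2, Stat3, Stat6 and Jak2 were called higher and Stat5a lower by limma with the intensity trend. These were 4 and 1 of the 9 genes, where 7.86% and 7.69% of all probes were called. LPS replicate 1 is the brightest LPS sample for all of them, and leaving it out raises the log2 fold change by construction. For Stat5a this moved the value from -0.63 to -0.41, toward 0, while its standard error with the trend went from 0.18 to 0.09. Since LPS replicate 1 was singled out by the values of these genes, these calls are no independent support. Stat2 also moved with other samples, to -0.05 without LPS replicate 2. With LPS replicate 1 left out, limma without the trend called 0 of the 9 and 0 probes of the array. Groups then did not overlap for 5 of the 9, where they did not for 41.4% of all probes. LPS replicate 1 exceeded the mean of the other LPS samples for each of those 5 genes. On the log2 scale the excess was 0.80 for Stat2, 0.52 for Stat3, 0.65 for Stat5a, 0.88 for Stat6 and 0.77 for Jak2. The SD of log2 values in the LPS group was 0.47, 0.31, 0.38, 0.51 and 0.45 in the same order. The median SD over all probes in that group was 0.319.

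**Figure D2:**
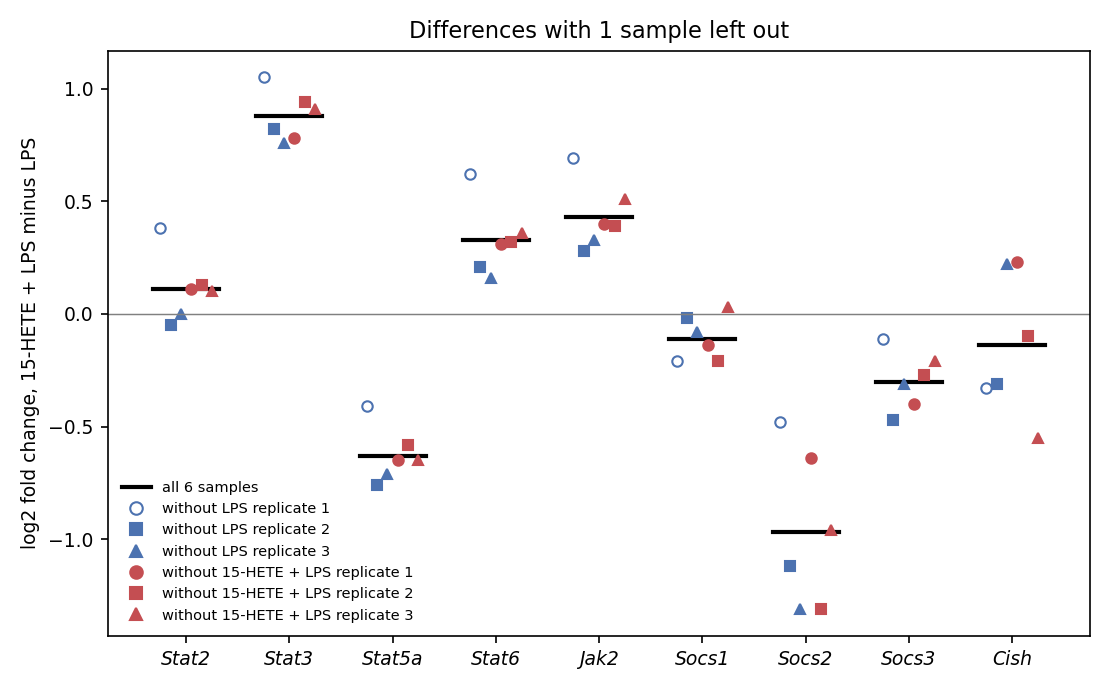
Log2 fold change (15-HETE + LPS minus LPS) of each of the 9 genes with all 6 samples (black line) and with 1 sample left out (points, blue for an LPS sample and red for a treated one, the open circle for LPS replicate 1). Leaving out LPS replicate 1 gave the highest value for 7 genes, Stat2, Stat3, Stat5a, Stat6, Jak2, Socs2 and Socs3, and Stat3 stayed between 0.76 and 1.05.

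For the 4 feedback genes the groups overlapped. Socs3, which blocks signalling of the IL-6 and G-CSF receptors, was brighter than 98.0% of the probes of the array. LPS samples had 443886, 267007 and 335142 and treated samples 322026, 268855 and 247830. The groups overlapped, with a difference of -0.30 on the log2 scale (standard error 0.25, 95% confidence interval -0.90 to 0.31, adjusted p = 0.555 from limma). Without LPS replicate 1 it was -0.11. Socs1, which inhibits Janus kinases in the response to interferons, had a probe brighter than 94.9% of the olfactory receptor probes. Its values were 3658, 4781 and 4361 against 4128, 4562 and 3254. These ranges nearly coincide, and the interval of the log2 fold change, -0.63 to 0.42 around -0.11, leaves room for changes of up to 1.34-fold up or down to 0.646-fold (adjusted p = 0.825).

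Socs2 and Cish, both targets of STAT5, were dim. Socs2, best known as a brake on growth hormone signalling, had 1473, 613 and 470 in LPS samples and 243, 616 and 377 after 15-HETE, and its probe was brighter than 65.1% of the olfactory receptor probes. The groups overlapped through treated replicate 2. Its log2 fold change of -0.97 had a standard error of 0.53 (95% confidence interval -2.25 to 0.32, adjusted p = 0.371 from limma), and -0.48 was left without LPS replicate 1. Cish, the founding member of the family, had 208, 214 and 445 against 148, 231 and 432. Its probe was brighter than only 13.5% of the olfactory receptor probes, so no level above that of genes not expected in these cells was detectable, and its log2 fold change of -0.14 (95% confidence interval -1.32 to 1.04, adjusted p = 0.9) carries little information. All 4 feedback genes had a negative log2 fold change, with a median of -0.218, and 0 of 4 passed in limma with or without the intensity trend. Of the probes above the median alone, Socs1 and Socs3 were tested and did not pass.

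Promoter windows from RefSeq (build GRCm38.p6, 250 bases before to 50 after the start of the gene, 300 in all) were found for 8 of the 9 genes, and Socs2 had none. They were searched on both strands for the motif of STAT dimers, TTCNNNGAA, for the STAT6 motif, which has 1 more free base in its middle, and for the interferon response motif, GAAA and again GAAA with 2 free bases between them. These were found in 8.3%, 6.95% and 3.44% of 32851 such windows, and in the windows shown matches to different motifs do not overlap. The windows below are shown because they hold a match, given in capitals, or because they belong to Stat3, the STAT gene with the lowest p, or to Jak2, the kinase. Those with a match were chosen after the matches were seen. They lie at chr11:117969317-117969616 on the minus strand (Socs3), chr9:107296409-107296708 on the plus strand (Cish), chr16:10785487-10785786 on the minus strand (Socs1), chr10:128270248-128270547 on the plus strand (Stat2), chr11:100939491-100939790 on the minus strand (Stat3) and chr19:29251553-29251852 on the plus strand (Jak2), and each is written 5′ to 3′.
Socs3 promoter: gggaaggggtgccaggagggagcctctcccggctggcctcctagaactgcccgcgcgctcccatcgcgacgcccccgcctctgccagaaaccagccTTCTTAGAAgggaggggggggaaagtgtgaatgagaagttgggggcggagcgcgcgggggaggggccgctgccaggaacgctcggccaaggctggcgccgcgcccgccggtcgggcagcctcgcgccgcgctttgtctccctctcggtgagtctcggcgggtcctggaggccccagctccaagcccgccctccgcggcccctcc
Cish promoter: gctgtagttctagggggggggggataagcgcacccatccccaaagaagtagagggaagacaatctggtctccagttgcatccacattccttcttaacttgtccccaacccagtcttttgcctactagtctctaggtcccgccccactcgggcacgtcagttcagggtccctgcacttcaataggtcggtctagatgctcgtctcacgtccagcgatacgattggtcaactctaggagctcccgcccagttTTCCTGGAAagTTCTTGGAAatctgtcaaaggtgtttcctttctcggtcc
Socs1 promoter: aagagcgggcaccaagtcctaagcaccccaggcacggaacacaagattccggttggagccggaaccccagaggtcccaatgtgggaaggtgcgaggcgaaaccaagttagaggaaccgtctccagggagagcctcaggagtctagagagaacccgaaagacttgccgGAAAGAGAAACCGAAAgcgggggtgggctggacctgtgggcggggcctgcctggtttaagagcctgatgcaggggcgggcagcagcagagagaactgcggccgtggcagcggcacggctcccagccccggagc
Stat2 promoter: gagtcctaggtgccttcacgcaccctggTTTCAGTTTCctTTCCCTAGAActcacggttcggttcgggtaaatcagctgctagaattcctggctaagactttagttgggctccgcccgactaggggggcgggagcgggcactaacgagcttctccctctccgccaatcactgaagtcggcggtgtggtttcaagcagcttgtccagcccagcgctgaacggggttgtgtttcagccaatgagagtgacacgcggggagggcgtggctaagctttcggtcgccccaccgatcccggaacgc
Stat3 promoter: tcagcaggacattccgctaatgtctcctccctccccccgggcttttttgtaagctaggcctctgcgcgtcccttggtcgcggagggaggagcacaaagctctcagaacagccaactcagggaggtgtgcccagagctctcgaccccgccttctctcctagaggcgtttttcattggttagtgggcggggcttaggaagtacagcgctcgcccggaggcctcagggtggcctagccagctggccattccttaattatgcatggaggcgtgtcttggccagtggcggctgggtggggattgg
Jak2 promoter: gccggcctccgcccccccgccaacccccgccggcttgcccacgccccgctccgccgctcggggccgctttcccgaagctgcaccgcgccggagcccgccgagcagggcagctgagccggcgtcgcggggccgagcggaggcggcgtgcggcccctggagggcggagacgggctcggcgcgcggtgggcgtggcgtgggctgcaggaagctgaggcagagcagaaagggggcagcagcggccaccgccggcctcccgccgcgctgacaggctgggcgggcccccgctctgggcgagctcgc

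Socs3 held TTCTTAGAA, with its first base at -154 from the start, and Cish held TTCCTGGAA and TTCTTGGAA just after it. These are the only matches to the STAT dimer motif in the 9 windows of these genes. In Socs1 the matches GAAAGAGAAA and GAAACCGAAA to the interferon response motif overlap in 1 stretch. Stat2 held TTTCAGTTTC, the same motif on the other strand, beside the STAT6 match TTCCCTAGAA. The windows of Stat3, Jak2, Stat6 and both starts of Stat5a held no match to these letters. A match is a description of the sequence, and binding was not measured.

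The rest of the family was read in the same way. Of 9 other STAT, JAK and SOCS genes 8 had a probe of their own, and limma called 0 of them. At an unadjusted p under 0.05, 1 was higher and 2 lower, where 8.62% and 11.0% of all probes were. Stat5b, the close paralogue of Stat5a, had 8534, 8911 and 9308 in LPS samples and 3484, 5415 and 5604 after 15-HETE. All treated samples were lower and LPS replicate 1 was the lowest of the LPS samples here. Its log2 fold change, -0.91 with a standard error of 0.24, had an adjusted p = 0.119 from limma and 0.0217 with the intensity trend, and it was -0.95 without LPS replicate 1. In the GRCm38.p6 annotation Stat5b, Stat5a and Stat3 follow each other on chromosome 11 with no other protein-coding gene between them, and the pair of Stat5 genes had negative and Stat3 positive log2 fold changes. Probe sequences were not used here, so whether the Stat5a and Stat5b probes share signal was not tested.

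Socs5, a less studied member of the SOCS family, had 3879, 2152 and 2254 against 6276, 4985 and 4994. Each treated sample was brighter than each LPS sample. The difference was 1.02 on the log2 scale (standard error 0.28, adjusted p = 0.132 from limma, 0.0359 with the intensity trend), and 1.29 without LPS replicate 1. Socs7 lay the other way at a low level, with 990 ± 119 (SD, n = 3) in LPS samples and 341 ± 193 (SD, n = 3) after 15-HETE (log2 fold change -1.67, adjusted p = 0.103 from limma, 0.0588 with the trend). Socs4 (0.40), Socs6 (-0.14) and the kinases Jak1 (0.37) and Tyk2 (-0.16) were nearer to 0, with adjusted p from limma of 0.285 to 0.732. Without LPS replicate 1, Jak1 (0.43, adjusted p = 0.00549) and Socs4 (0.48, adjusted p = 0.0156) passed with the intensity trend, where 7.86% of all probes were called higher, and had an adjusted p of 0.19 and 0.176 without the trend. Stat4, a factor of IL-12 signalling in lymphocytes, was dim and scattered, at 194, 196 and 247 against 183, 555 and 1054 (1.17 on the log2 scale, standard error 0.62, adjusted p = 0.356). The only probe of Jak3 is shared with Insl3 in the annotation and is not read as either gene.

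**Figure D3:**
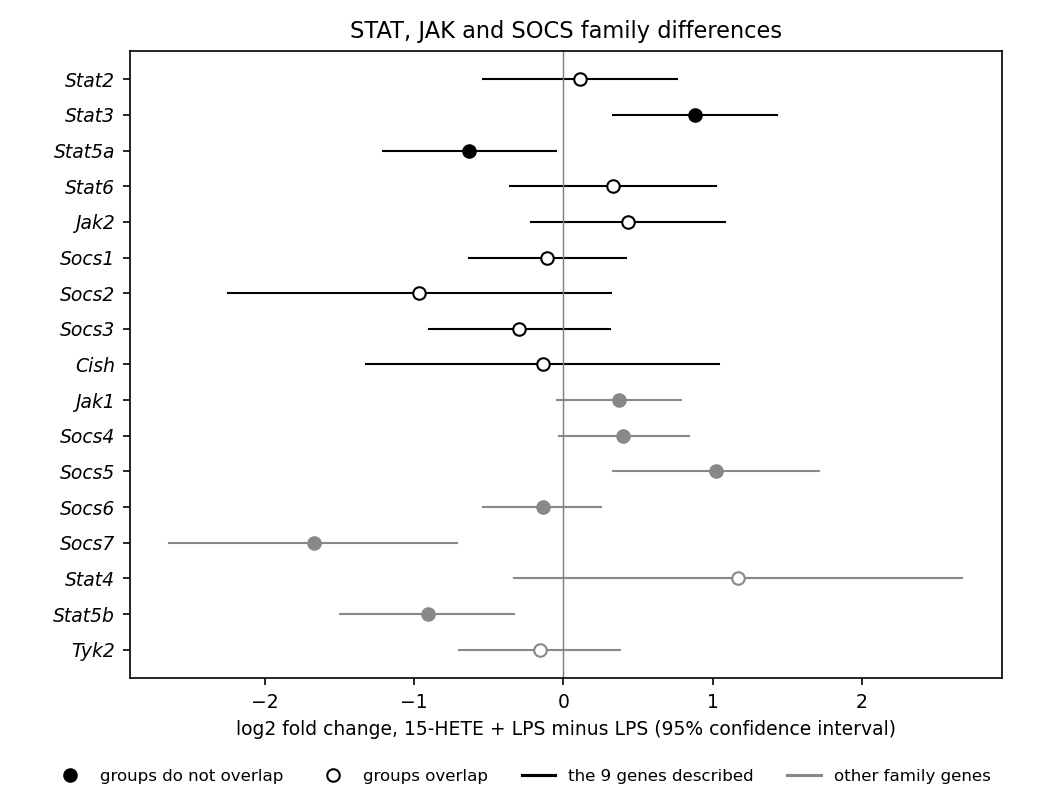
Log2 fold change (15-HETE + LPS minus LPS) with its 95% confidence interval from limma for the 9 genes (black) and 8 other family genes (grey), with filled points where the 2 groups of 3 samples do not overlap. Stat3 and Socs5 lie above 0 and Stat5a, Stat5b and Socs7 below 0 with intervals that leave 0 out, before adjustment for the number of probes.

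Upstream and downstream of these genes the pathway was described by lists of ligands, receptors, inhibitors, partners and target genes, 143 genes in all with the family genes, of which 120 had a probe of their own. Limma called 1 higher, Mrc1, and 0 lower, and the median log2 fold change was 0.058, against 0.021 over all genes. The intensity trend gave 7 higher and 9 lower, where 3.87% and 4.96% of all probes were called. Without LPS replicate 1 that setting called 25 higher and 15 lower, where 7.86% and 7.69% of all probes were. Limma without the trend then called 0 and 0, as it did over all probes of the array.

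Among ligands 0 of 31 were called by limma, while 3 were higher and 4 lower at an unadjusted p under 0.05. Il6, the classical STAT3 cytokine, had 16219, 25133 and 28060 in LPS samples and 7956, 5734 and 7511 after 15-HETE. The treated samples were all lower (-1.69 on the log2 scale, standard error 0.28, adjusted p = 0.057 from limma, 0.00239 with the intensity trend). Il12a, a subunit of IL-12, had -1.93 (adjusted p = 0.0575 and 0.00267), and Il15, a growth factor of lymphocytes, had 0.94 (adjusted p = 0.0742 and 0.00428). With the trend Il10 (-0.90, adjusted p = 0.0344) and Csf3, which encodes G-CSF (-1.10, adjusted p = 0.0112), were lower as well, and these were picked out after their values were seen. Other ligands that act through STAT3 had log2 fold changes of both signs. Il27 (0.56) and its partner chain Ebi3 (0.57) were higher with no overlap between groups (adjusted p from limma of 0.189 and 0.236). Il11 had 0.74 with overlap (adjusted p = 0.453), and Ctf1 had 0.03. Cntf (-0.96), Il23a (-0.79), Clcf1 (-0.62) and Lif (-0.34) were negative, with overlap and adjusted p from limma of 0.438 to 0.729. These too were picked out after their values were seen. The group means of Il11, Ctf1, Cntf, Il23a, Clcf1 and Lif lay under 4061, the 95th percentile of the olfactory receptor probes.

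Of 31 receptors limma called 0. Csf3r, the G-CSF receptor that acts through STAT3 and is held back by SOCS3, had 1064070, 778801 and 773867 against 411757, 457872 and 477489, with no overlap (log2 fold change -0.94, adjusted p = 0.0885 from limma, 0.0113 with the intensity trend). Crlf2, a receptor chain for TSLP, had 0.87 (adjusted p = 0.119 and 0.0234) and the IL-21 receptor Il21r had -0.90 (adjusted p = 0.122 and 0.207). Il12rb2, picked out after its value was seen, passed with the trend as well (1.40, adjusted p = 0.0372). The group means of Il21r (812 and 438) and Il12rb2 (1294 and 3473) lay under 4061, the 95th percentile of the olfactory receptor probes. Of 13 other inhibitors 0 were called by limma, and with the trend the nuclear STAT ligase Pdlim2 (0.61, adjusted p = 0.0121) and Pias2 (0.51, adjusted p = 0.0419) were higher, while Pias3 had -0.79 (adjusted p = 0.246 from limma). Of 6 partners and adaptors limma called 0, with the coactivator Ncoa1 at -0.81 (0.0322 with the trend), the adaptor Sh2b1 at -0.67 and the STAT-binding protein Nmi at 0.52.

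Each list of target genes held log2 fold changes of both signs. Of 17 STAT3 target genes 0 were called and 10 had a negative log2 fold change (median -0.280). The lowest p were those of Etv3, an IL-10-induced repressor (-1.17, adjusted p = 0.0675 from limma, 0.00287 with the intensity trend), Nfil3 (-0.87, 0.128 and 0.0163) and the iron-binding protein Lcn2 (-0.51, 0.175 and 0.0849). In the same list 7 lay above 0. Among them were Il1rn (0.71, adjusted p = 0.189 from limma) and Saa3 (0.79, 0.334), picked out after their values were seen. Groups did not overlap for 5 higher and 7 lower genes of the list, where they did not for 30.0% of all probes. Of 8 STAT5 targets 0 were called and 6 lay above 0, among them Ccnd2, which encodes cyclin D2 (1.41, adjusted p = 0.0773), Bcl6 (0.58) and Pim2 (0.43). Of 11 STAT6 targets Mrc1, the mannose receptor of alternatively activated macrophages, rose from 4217, 3838 and 3529 to 12513, 10846 and 10148 (log2 fold change 1.53, adjusted p = 0.0395 from limma). Cdh1 (0.61) and Arg1, the arginase of such cells (-1.10), did not pass, and the median of the list was -0.051. Both probes were dim, with means in LPS and treated samples of 240 and 367 for Cdh1 and 588 and 318 for Arg1. The median of the olfactory receptor probes was 400. Mrc1 was no longer called with any 1 sample left out, when limma without the trend called 0 probes of the array.

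**Figure D4:**
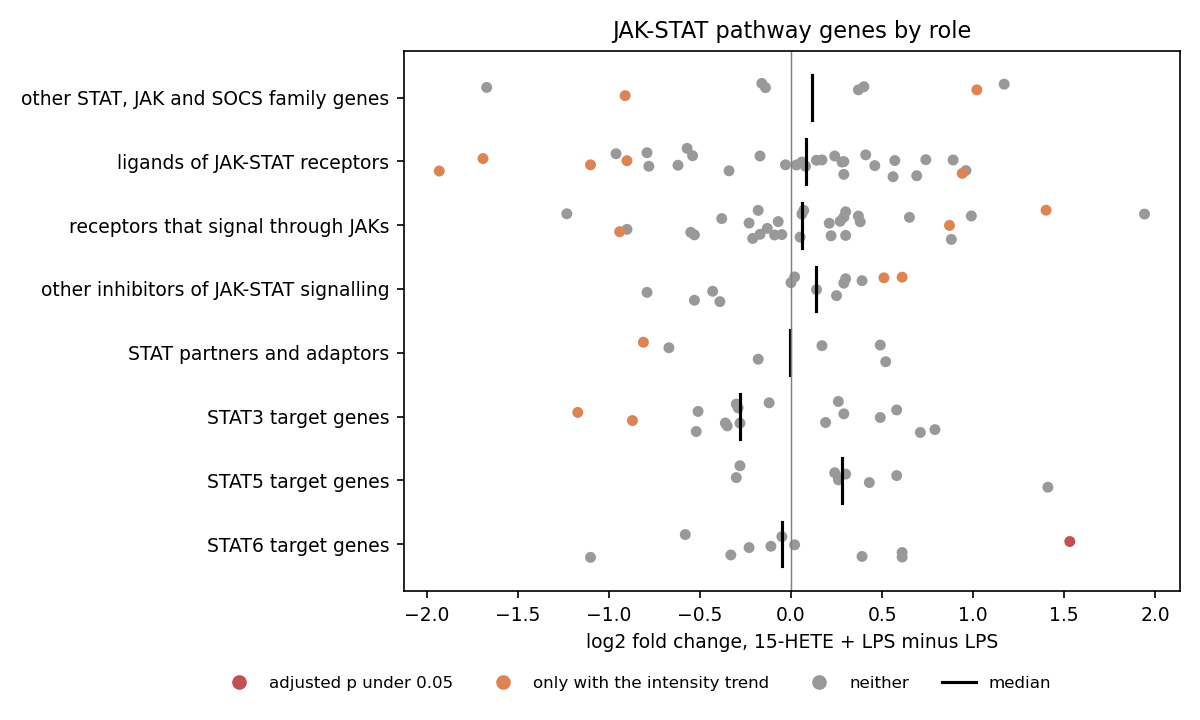
Log2 fold change (15-HETE + LPS minus LPS) of each measured gene of the 8 pathway lists at its brightest probe, with points placed at random heights within a row, red where limma called the gene, orange where it did so only with the intensity trend, and a black line at the median. The 1 red point is Mrc1, and the medians lie between -0.280 and 0.276.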

How the data were processed

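Total RNA of RAW 264.7 cells was labelled with digoxigenin and hybridized to 1-colour mouse genome survey arrays, 3 per group. The authors read the arrays on the chemiluminescent analyzer, processed them with its software and quantile normalized them, and deposited linear intensities for 33012 probes, with a median of 837 in each of the 6 samples. Background correction is not named in the sources used here, and the later filter on S/N and flags could not be repeated, so dim probes were kept. Arrays give no depth.

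Values were turned to log2 as deposited. The platform annotation gives 1 symbol to 14411 probes, several to 247 and none to 18354, and 14402 were found in the reference by gene id. Genes were read at the probe with the highest mean. Groups were compared probe by probe in R 4.3.3 by limma 3.58.1 (lmFit, eBayes, two-sided), p-values were adjusted over the whole array by Benjamini-Hochberg, and a gene was called below 0.05. Single values were also compared by exact permutation. The test was checked on simulated data. The methods' t-test (at most 0.025) was run over all probes and over those past the 1.8-fold rule. Named were the 9 genes, the family genes with a probe, and in each other list every gene called and the 3 with the lowest p. The members and lists were chosen with earlier results of these data known, and 1 list of target genes is not reported here. P-values measure the spread between replicates of pooled wells.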

Additional observations from a re-analysis of the deposited data

How the results depend on the processing

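Of the 9 genes, 0 were called in either direction by limma, by limma with a robust prior, an offset, cyclic loess, another centring, the mean over probes or by the methods' t-test over all probes. That t-test called 0 probes of the array. The filter at the 25th percentile kept 8 of them, the one at the median 7, and the fold rule of the methods' t-test only Socs2, and at the 25th percentile and past the fold rule 0 were called. Stat3 alone, 1 gene higher, was called with array weights, with the intensity trend and among probes above the median. With 1 sample left out limma called 0 higher and 0 lower each time. It then called 0 probes of the array, so this is no result about the 9 genes. With the intensity trend as well, a combination chosen after seeing the data, the counts ran from 0 to 4 and from 0 to 1, both highest without LPS replicate 1. Log2 fold changes turned for 3 genes. Leaving out 1 sample put Stat2 between -0.05 and 0.38, where it turned without LPS replicate 2, Socs1 between -0.21 and 0.03, where it turned without 15-HETE + LPS replicate 3, and Cish between -0.55 and 0.23, where it turned without 15-HETE + LPS replicate 1 and, to 0.22, without LPS replicate 3. With all samples the intervals of these 3 genes spanned 0.

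Of 120 pathway genes, 1 was higher and 0 lower, where 0.509% and 0.442% of all probes were. The higher ones were 3 with array weights and 7 with the trend, where 626 and 1279 of 33012 probes were called. Above the 25th percentile they were 3 of 104, where 570 of 24759 probes were called. Above the median they were 9 of 84, where 1207 of 16506 were. By the methods' t-test they were 0 over all probes, where 0 probes of the array were called, and 1 of the 23 past the fold rule. The lower ones were 4 with array weights, 9 with the trend and 3 with the offset of 100, where 582, 1638 and 358 of 33012 probes were called. Above the 25th percentile they were 4 of 104, where 654 of 24759 probes were called. Above the median they were 8 of 84, where 1589 of 16506 were. With 1 sample left out both were 0 each time in limma, which then called 0 probes of the array. With the intensity trend as well the counts ran from 2 to 25 higher and from 5 to 15 lower. Over the array that combination called 535 to 2595 of 33012 probes higher and 688 to 2540 lower. With the replicate number as a block 0 of the 9 genes and 0 of the 120 were called, as were 0 probes of the array. Deviations of same-numbered samples correlated at -0.024, 0.003 and 0.024, and not every sample correlated best with its own number. With 3 samples per group these values cannot decide whether same-numbered samples were handled together, which the labels do not state. The cause of these changes was not tested.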
